A study of Homo sapiens with 6 samples.

Results

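The kinesins are the motor proteins that walk along microtubules. Their genes were read here in RD18 cells, a human line of embryonal rhabdomyosarcoma, a tumour related to immature skeletal muscle. Members were the rows whose only gene symbol was KIF followed by a number up to 27 or KIFC followed by a number, with an optional letter, and a gene with more than 1 row was read on its brightest. This gave 41 kinesin genes among the 18417 genes that had a row of their own, and 4 of them (KIF18B, KIF22, KIF5A and KIFC1) had more than 1 row. KIF4B shares a row with KIF4A and was not read by itself. CENPE, a kinetochore kinesin whose symbol has another form, was read as a partner and not as a member. By the role known for each gene the members were divided into 13 mitotic kinesins, 15 transport kinesins and 13 others, which include ciliary kinesins and those with other or little-described roles.

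Kinesins turn ATP hydrolysis into movement along microtubules or into the removal of tubulin from microtubule ends. The mitotic kinesins separate the spindle poles, move and align chromosomes and build the midzone at which a cell divides, and dividing cells make most of their transcripts in G2 and mitosis. The transport kinesins carry vesicles, mitochondria, mRNA and intraflagellar cargo and are also made by cells that do not divide, including muscle.

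The 6 arrays came from 2 derivatives of RD18. In NpBI-22 cells, called miR-22 cells here, doxycycline turns on the microRNA miR-22; 2 cultures were read after the drug had been given at 1 µg/ml for 6 days (induced) and 2 without it (uninduced), and the series describes them as biological replicates. NpBI-206AS cells were added as controls with 1 induced and 1 uninduced array. The labels do not state what the NpBI-206AS construct expresses or whether either derivative is 1 clone, so an NpBI-206AS difference may hold effects of the drug and of the construct at once.

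Values are log2 expression, deposited after normalization of all arrays to 1 distribution, and a difference of 1 is a factor of 2. Array medians lay between 5.66 and 5.75. The host gene of miR-22, MIR22HG, read 10.02 and 10.01 in induced miR-22 cells, 6.27 and 6.72 in uninduced miR-22 cells, 6.41 in uninduced NpBI-206AS cells and 6.32 in induced NpBI-206AS cells. The higher host reading thus followed the labels. The muscle identity of the line was visible in MYOD1, a master regulator of the lineage, at 8.87 to 9.74 and in DES, the muscle intermediate filament, at 8.05 to 9.30. MYF5, another muscle regulator, lay at 3.88 to 3.96, below the lower quartile of all rows on 5 of 6 arrays. PTPRC, a blood cell marker, and EPCAM, an epithelial marker, lay below that quartile on all 6. They were the 1 of 4 measured blood markers and the 1 of 5 epithelial markers to do so. The other 3 and 4 lay above it on every array, up to KRT14, a keratin, at 6.01 to 6.45. Of 5 endothelial markers only KDR lay below it on all 6, and TEK, another of them, read 7.33 to 7.78. Both induced miR-22 arrays carry a code prefix that no other array has, uninduced miR-22 replicate 1 has a prefix of its own, and the other 3 arrays share 1 prefix, so induction of miR-22 and array prefix cannot be told apart.

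The microRNA itself is too short for these arrays. Its mature arms are shown with the seed, bases 2 to 8, in capitals, because the seed is the stretch that pairs with target mRNAs. They were taken from RefSeq on GRCh38.p14.
hsa-miR-22-3p, chr17:1713914-1713935, minus strand: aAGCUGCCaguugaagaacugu
hsa-miR-22-5p, chr17:1713952-1713973, minus strand: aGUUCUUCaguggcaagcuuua

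Many genes of G2 and mitosis share a promoter element called CHR (cell cycle genes homology region), which the DREAM and MuvB complexes bind, and an upstream CCAAT box, which NF-Y binds. The RefSeq promoter table held 33 of the 41 kinesins, each with 250 bases before the transcription start and 50 after it. Both strands were searched for CHR, spelled TTTGAA or TTCGAA, and for CCAAT; these motifs do not overlap. Of the 13 mitotic kinesins, 10 had a CHR match (76.9%), against 1 of 11 transport kinesins (9.09%), 1 of 9 others (11.1%) and 19.5% of all 27305 genes in the table. Within 50 bases of the start the counts were 9 of 13 mitotic kinesins (69.2%), 0 of 11 transport kinesins, 1 of 9 others and 6.24% of all genes. CCAAT was found for 10 of 13 mitotic kinesins (76.9%), 4 of 11 transport kinesins (36.4%), 3 of 9 others (33.3%) and 39.7% of all genes. Both motifs occurred in 9 mitotic kinesins (69.2%) and in 9.02% of all genes. The mitotic kinesins without a CHR match were KIF2C, KIF20A and KIF2B, and the transport kinesin with one was KIF5B. A match is a description of letters and not a measured binding site.

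The 100 bases around the start (80 before and 20 after, in the direction of the gene, GRCh38.p14) are given for KIF15, KIF14 and KIF2C, the mitotic kinesins that differed most firmly below. KIFC1, KIF18B, KIF11 and KIF4A follow as chosen examples that hold both motifs in this window, and do not show how regularly the pair recurs. KIF3B is the transport kinesin with the largest difference above 0 between induced and uninduced miR-22 cells. Capitals mark the letters of a CHR or CCAAT match on either strand.
KIF15, chr3:44761714-44761813, plus strand: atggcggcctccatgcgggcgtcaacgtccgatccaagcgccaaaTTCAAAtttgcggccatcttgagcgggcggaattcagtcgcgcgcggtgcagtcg
KIF14, chr1:200620732-200620831, minus strand: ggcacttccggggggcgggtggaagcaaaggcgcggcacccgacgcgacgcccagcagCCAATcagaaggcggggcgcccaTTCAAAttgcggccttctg
KIF2C, chr1:44739757-44739856, plus strand: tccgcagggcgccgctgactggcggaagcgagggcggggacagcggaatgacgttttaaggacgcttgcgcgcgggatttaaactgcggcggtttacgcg
KIFC1, chr6:33391743-33391842, plus strand: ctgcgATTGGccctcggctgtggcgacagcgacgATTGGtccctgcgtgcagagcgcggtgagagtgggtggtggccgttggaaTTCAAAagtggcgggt
KIF18B, chr17:44947754-44947853, minus strand: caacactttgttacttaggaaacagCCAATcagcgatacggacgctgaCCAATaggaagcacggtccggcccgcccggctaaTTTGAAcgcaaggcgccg
KIF11, chr10:92593050-92593149, plus strand: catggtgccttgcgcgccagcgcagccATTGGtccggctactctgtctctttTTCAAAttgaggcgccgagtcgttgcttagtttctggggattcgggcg
KIF4A, chrX:70290024-70290123, plus strand: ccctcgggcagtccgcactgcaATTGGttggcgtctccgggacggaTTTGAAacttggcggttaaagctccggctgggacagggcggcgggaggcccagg
KIF3B, chr20:32277571-32277670, plus strand: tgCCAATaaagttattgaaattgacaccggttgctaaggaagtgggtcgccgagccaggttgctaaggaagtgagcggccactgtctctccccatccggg
With the first transcribed base at 1 and no base 0, the CHR letters begin at -35 in KIF15, at -28 in KIF11 and at -34 in KIF4A. In KIF14, KIF18B and KIFC1 they lie just after the start, beginning at 2, 3 and 5. The KIF2C and KIF3B windows hold none.

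**Figure D1:**
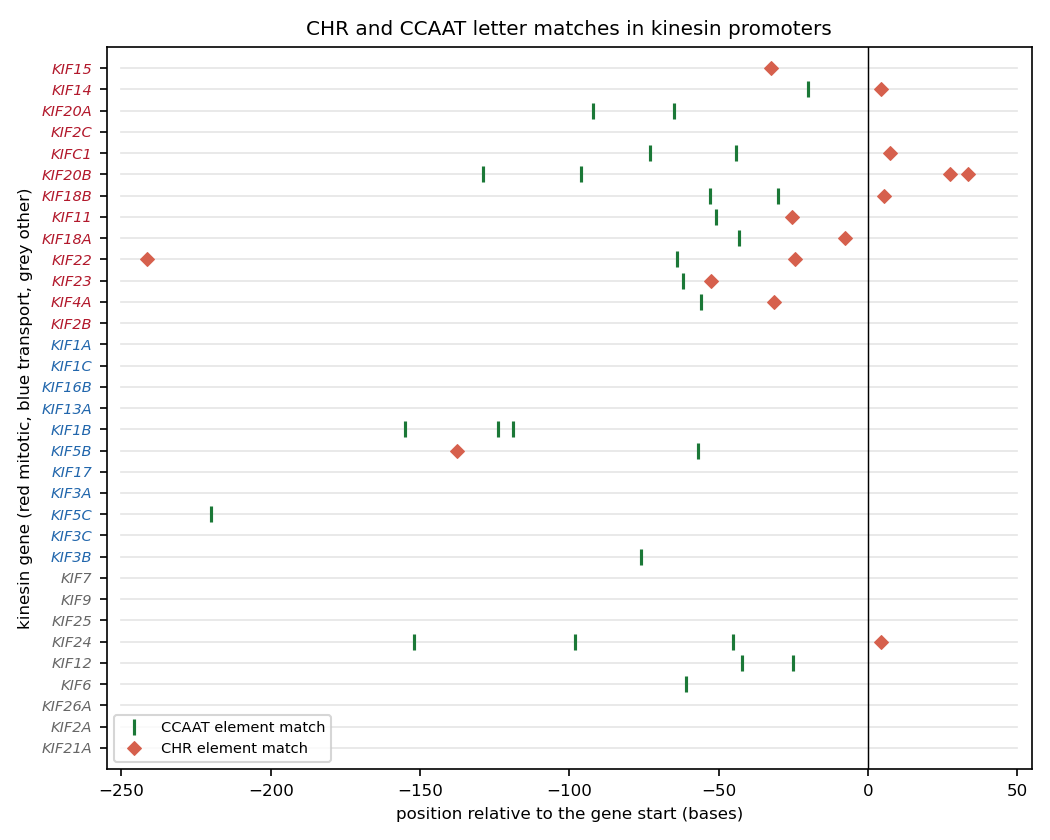
Positions of CHR and CCAAT matches in the promoters of the 33 kinesins that the RefSeq table holds, as the distance in bases from the transcription start on the horizontal axis, with 1 line per gene, grouped by role. The CHR matches of 9 of the 13 mitotic kinesins lie within 50 bases of the start, and the 1 KIF22 match shown far upstream is the same site as the near one, counted from a second start; 1 transport kinesin and 1 other kinesin have a CHR match.

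The first question was how the kinesins differed between induced and uninduced miR-22 cells. Mitotic kinesins read lower after induction, led by KIF15 and KIF14 at 2.90-fold and 2.65-fold lower, and 3 of the 13 passed the test (limma, Benjamini-Hochberg adjusted p under 0.05 over all 33297 rows): KIF15, KIF14 and KIF2C. Among the other kinesins KIF27 was the 1 of 13 that passed, lower, and no transport kinesin of 15 passed. Of all rows, 2.01% passed lower and 1.59% higher, and no kinesin passed higher. These are 669 rows lower and 531 higher; with each array centred on its median they were 574 and 718. All 13 mitotic kinesins had a difference below 0, with a median of -0.61, as did 13 of 15 transport kinesins, with a median of -0.23, and 12 of 13 others, with a median of -0.09. Over all rows 51.4% lay below 0 and the median was -0.01. Both induced arrays read below both uninduced arrays for 12 of 13 mitotic, 10 of 15 transport and 6 of 13 other kinesins, against 26.0% of all rows.

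KIF15, a motor that slides spindle microtubules together with KIF11, gave the largest difference. It read 6.60 and 6.78 in induced miR-22 cells, 8.20 and 8.25 in uninduced miR-22 cells, 8.46 in uninduced NpBI-206AS cells and 7.89 in induced NpBI-206AS cells. Both induced miR-22 arrays lay more than 1 unit below every other array. The means were 6.69 ± 0.13 (SD, n = 2) and 8.23 ± 0.03 (SD, n = 2), a difference of -1.54 (SE 0.16, limma adjusted p = 0.019).

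KIF14, a midzone kinesin that brings citron kinase to the division site, read 7.66 and 8.19 in induced miR-22 cells and 9.31 and 9.34 in uninduced miR-22 cells. It read 9.36 in uninduced NpBI-206AS cells and 9.06 in induced NpBI-206AS cells. The groups did not overlap, and the induced replicates were the farther apart. The means were 7.92 ± 0.38 (SD, n = 2) and 9.33 ± 0.02 (SD, n = 2), so KIF14 fell by 1.40 (SE 0.22, limma adjusted p = 0.036).

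KIF2C, also called MCAK, does not walk but strips tubulin from microtubule ends at centromeres. Its values were 8.90 and 8.74 in induced miR-22 cells, 9.75 and 9.66 in uninduced miR-22 cells, 9.72 in uninduced NpBI-206AS cells and 9.49 in induced NpBI-206AS cells. The fall of 0.89 (SE 0.15, limma adjusted p = 0.046) was 1.85-fold, and with each array centred on its median the adjusted p was 0.051. Its paralogs did not pass. KIF2A, which acts at spindle poles, was counted among the others, so the mitotic counts leave it out. It read 9.46 and 9.71 induced against 9.73 and 9.49 uninduced, and its groups overlapped. The difference was -0.03 with a 95% interval of -0.47 to 0.42. KIF2B read 4.52 and 4.77 induced against 4.57 and 4.90 uninduced, with 4.79 and 4.73 in uninduced and induced NpBI-206AS cells, the smallest difference of the mitotic list at -0.10, and its groups overlapped.

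KIF27, a relative of the Hedgehog pathway kinesin KIF7 that works in motile cilia, was the 1 member outside the mitotic list that passed. It read 5.81 and 5.67 in induced miR-22 cells, 6.68 and 6.63 in uninduced miR-22 cells, 6.64 in uninduced NpBI-206AS cells and 6.41 in induced NpBI-206AS cells. The groups were apart by more than the spread within either, and the fall was 0.91 (SE 0.15, limma adjusted p = 0.042). None of the 4 falls passed when any 1 of the 4 miR-22 arrays was left out, where the number of passing kinesins was 0 each time and the differences were -1.63 to -1.44 for KIF15, -1.67 to -1.14 for KIF14, -0.97 to -0.81 for KIF2C and -0.98 to -0.84 for KIF27.

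Further mitotic kinesins missed the threshold by different margins. KIF20A, a midzone motor that brings the chromosomal passenger complex to the cleavage furrow, read 8.59 and 8.90 in induced miR-22 cells, 9.59 and 9.80 in uninduced miR-22 cells, 9.75 in uninduced NpBI-206AS cells and 9.47 in induced NpBI-206AS cells. Its difference was -0.95 (SE 0.18, limma adjusted p = 0.057). KIFC1, which walks toward minus ends and focuses spindle poles, read 8.97 and 8.62 induced against 9.69 and 9.68 uninduced, with 9.57 and 9.30 in uninduced and induced NpBI-206AS cells. Its difference was -0.88 (SE 0.18, limma adjusted p = 0.061), and its second row gave the same -0.88. For both genes the induced miR-22 arrays lay below all 4 others, as did 18.3% of all rows.

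Motors that push the poles apart or align chromosomes showed smaller differences. KIF11, which slides antiparallel spindle microtubules and drives pole separation, read 9.13 and 9.38 induced against 9.77 and 9.78 uninduced, and 9.88 and 9.56 in uninduced and induced NpBI-206AS cells. Its difference was -0.52 (limma adjusted p = 0.14). KIF18A, which damps chromosome oscillation at the metaphase plate, read 8.35 and 8.95 induced against 8.98 and 9.25 uninduced, with 9.38 and 9.19 in NpBI-206AS cells (-0.46, limma adjusted p = 0.35). Its relative KIF18B, which works on astral microtubule ends, read 6.79 and 6.78 against 7.66 and 7.13, with 7.11 and 7.14 in NpBI-206AS cells (-0.61, limma adjusted p = 0.18), and -0.39 on its second row. KIF22, a chromokinesin that pushes chromosome arms outward, read 8.45 and 8.27 against 8.86 and 8.71, with 8.67 and 8.48 in NpBI-206AS cells (-0.43, limma adjusted p = 0.21). In each of these 4 genes both induced miR-22 arrays lay below all other arrays, as did 18.3% of all rows. The gap was small for KIF18A (8.95 against 8.98) and KIF22 (8.45 against 8.48).

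The other kinesins of the midzone and of late division did not pass either. KIF23, the motor subunit of centralspindlin, read 9.95 and 10.07 in induced miR-22 cells, 10.52 and 10.29 in uninduced miR-22 cells, and 10.39 and 10.04 in uninduced and induced NpBI-206AS cells. Its difference was -0.39 (SE 0.16, limma adjusted p = 0.25), and induced NpBI-206AS cells lay between the induced miR-22 replicates. KIF4A, which limits midzone length and compacts chromosomes, read 9.21 and 9.39 against 9.67 and 9.61, with 9.86 and 9.46 in NpBI-206AS cells (-0.34, limma adjusted p = 0.29). KIF20B, needed late in cell division, read 7.71 and 8.28 against 8.37 and 8.88, with 9.10 and 8.71 in NpBI-206AS cells (-0.63, limma adjusted p = 0.26). For KIF20B the replicates of each miR-22 group differed by nearly as much as the groups did. No kinesin was tested against another.

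**Figure D2:**
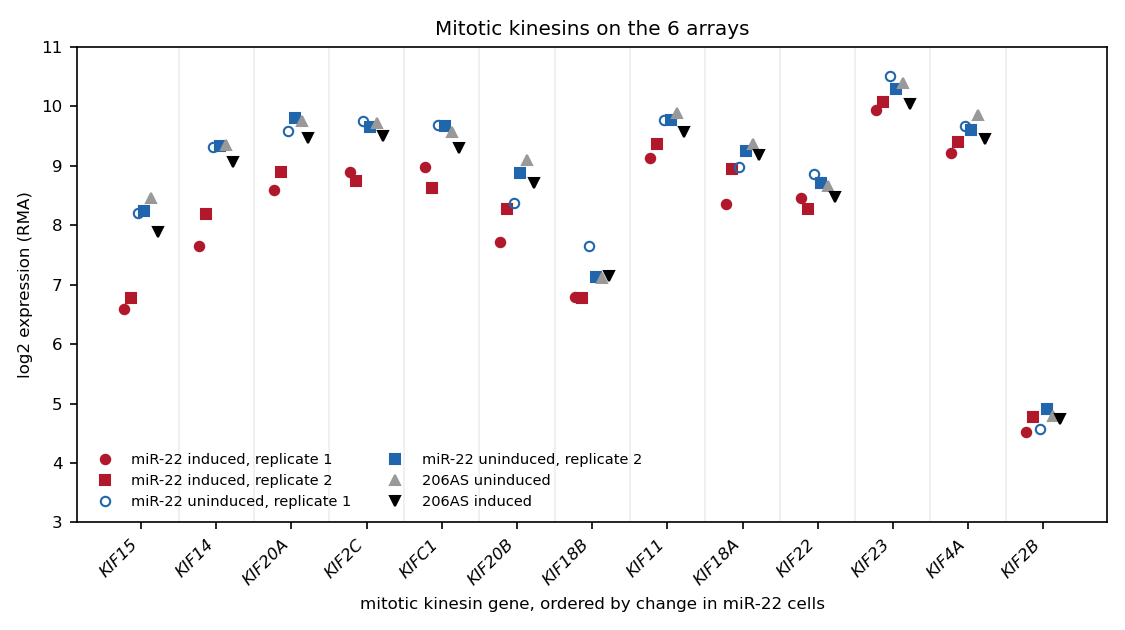
Deposited log2 expression of each of the 13 mitotic kinesins, 1 point per array, with genes on one axis and the log2 value on the other and colours for the 4 groups. The induced miR-22 points lie below all 4 other arrays for 11 of the 13 genes, against 18.3% of all rows, the exceptions being KIF23 and KIF2B. Levels of different genes come from different probes and are not to be compared.

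Of the 3 kinesins above 0, the transport kinesins held 2, KIF3B and KIF3C. KIF3B, a subunit of the heterotrimeric kinesin that drives intraflagellar transport, read 8.35 and 8.42 in induced miR-22 cells, 7.71 and 8.0 in uninduced miR-22 cells, and 8.06 and 8.02 in uninduced and induced NpBI-206AS cells. It was the 1 kinesin whose induced miR-22 arrays both lay above the other 4, as did 19.4% of all rows, and its difference of 0.53 (SE 0.17, limma adjusted p = 0.15) did not pass. The other KIF3 genes had smaller differences and were not tested against it. KIF3C read 7.03 and 6.95 against 6.97 and 6.57, with 6.70 and 6.90 in uninduced and induced NpBI-206AS cells (0.22, limma adjusted p = 0.58). KIF3A had a difference of -0.10 with a 95% interval of -0.73 to 0.54. KIFAP3, the accessory subunit that links the heterotrimeric kinesin to cargo, read 7.67 and 7.78 induced against 8.06 and 8.38 uninduced (-0.50, limma adjusted p = 0.18).

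The largest differences below 0 among transport kinesins belonged to KIF1A, KIF1C and KIF16B. KIF1A, the carrier of synaptic vesicle precursors, read 7.14 and 6.98 in induced miR-22 cells, 7.63 and 7.57 in uninduced miR-22 cells, and 7.31 and 7.57 in uninduced and induced NpBI-206AS cells (-0.54, SE 0.15, limma adjusted p = 0.12). KIF1C, a carrier of Golgi and integrin vesicles, read 7.74 and 7.77 against 8.41 and 8.03, with 8.05 and 8.09 in NpBI-206AS cells (-0.47, limma adjusted p = 0.23). KIF16B, an early endosome motor, read 6.74 and 7.03 against 7.19 and 7.48, with 7.29 and 7.41 in NpBI-206AS cells (-0.45, limma adjusted p = 0.25). In each of these 3 the induced miR-22 arrays lay below the other 4, as did 18.3% of all rows. The remaining 9 transport kinesins apart from KIF3A lay between -0.42 for KIF13A and -0.00 for KIF5C. The conventional heavy chains KIF5A, KIF5B and KIF5C had differences of -0.12, -0.27 and -0.00, each with an interval that holds 0.

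Among the others, KIF26B, a kinesin-like protein with a part in cell adhesion and polarity, read 6.20 and 6.32 in induced miR-22 cells, 6.77 and 7.28 in uninduced miR-22 cells, and 7.16 and 7.08 in uninduced and induced NpBI-206AS cells (-0.76, SE 0.21, limma adjusted p = 0.11). KIF7, the regulator of GLI proteins at the tip of the primary cilium, read 6.17 and 6.17 against 6.87 and 6.50, with 6.47 and 6.71 in NpBI-206AS cells (-0.52, limma adjusted p = 0.18). KIF19, which shortens ciliary microtubules, was the 1 other kinesin above 0, at 0.06, with 5.40 and 5.43 against 5.22 and 5.49, and 5.46 and 5.31 in uninduced and induced NpBI-206AS cells. The remaining 9 ran from -0.24 for KIF9 and KIF25 to -0.02 for KIF21A. KIF21A was also the 1 member to read below an array's lower quartile, on 4 arrays.

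**Figure D3:**
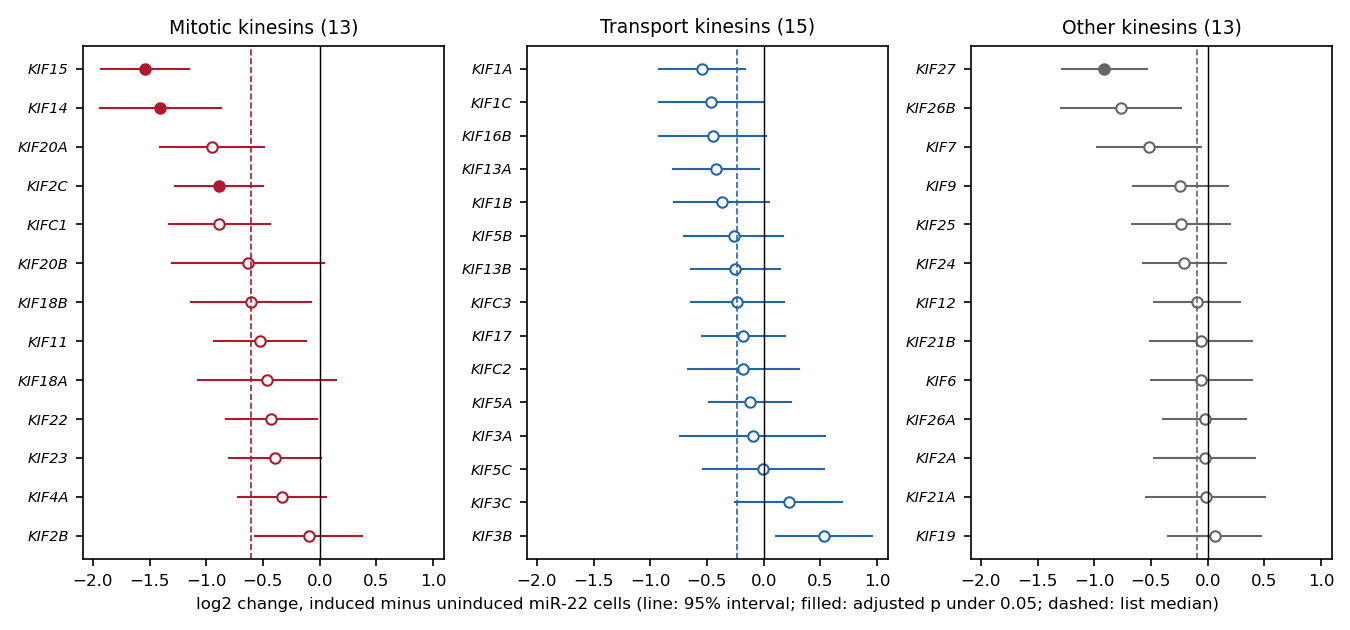
Difference between induced and uninduced miR-22 cells (log2, horizontal axis) for each of the 41 kinesins, grouped into mitotic, transport and other kinesins, with 95% intervals from the limma fit. Points are below 0 for all 13 mitotic kinesins, and the members that passed are KIF15, KIF14, KIF2C and KIF27.

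Each list was also followed array by array, as the median over its genes of the value minus that gene's mean over the 6 arrays. For mitotic kinesins these medians were -0.46 and -0.31 on the induced miR-22 arrays, 0.29 and 0.23 on the uninduced miR-22 arrays, 0.33 in uninduced NpBI-206AS cells and 0.04 in induced NpBI-206AS cells. The induced NpBI-206AS array thus lay between the induced miR-22 arrays and the 3 arrays without doxycycline. For transport kinesins they were -0.22 and -0.11, then 0.12 and 0.08, then 0.04 and 0.09. For the others they were -0.12 and -0.07, then 0.15 and 0.01, then 0.04 and 0.02. The induced miR-22 arrays were lowest in every list, and farthest from the rest in the mitotic one. They also had the lowest medians over all rows, 5.69 and 5.66, against 5.71 to 5.75 on the other arrays.

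The second question was whether the reading depended on doxycycline, which the induced NpBI-206AS array shared. Set against that array, no kinesin passed, while 0.186% of all rows passed lower and 0.204% higher. All 13 mitotic kinesins lay below it with a median of -0.50, as did 13 of 15 transport kinesins with a median of -0.28 and 10 of 13 others with a median of -0.04, and the median over all rows was 0.02. An unadjusted p under 0.05 was reached by 7 of the 41 kinesins and by 15.7% of rows. KIF15 had the lowest adjusted p, at a difference of -1.20 (limma adjusted p = 0.076), followed by KIF14 at -1.14 (limma adjusted p = 0.14). KIF23 differed from the induced NpBI-206AS array by -0.04 (limma adjusted p = 0.96). The lone NpBI-206AS array is taken to vary like the others. Leaving out the dimmest 50% of rows brought KIF15 past the threshold as the 1 kinesin. In that setting 747 of 16648 rows passed, against 130 of 33297 rows in the main setting.

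In NpBI-206AS cells alone, 1 induced against 1 uninduced array with no replicate check, the mitotic kinesins read lower as well, by less. Of the 13, 12 lay below 0, with a median of -0.28 and a range of -0.57 for KIF15 to 0.03 for KIF18B. Transport kinesins lay below 0 in 4 of 15, with a median of 0.07, and others in 8 of 13, with a median of -0.04; over all rows 48.8% lay below 0 and the median was 0.00. No kinesin differed by 2-fold, against 0.438% of rows that were at least 2-fold lower and 0.234% at least 2-fold higher. KIF4A read 0.40 lower in induced than in uninduced NpBI-206AS cells and 0.34 lower in the miR-22 line. KIF23 read 0.35 and 0.39 lower. For KIF14 the values were 0.29 lower in NpBI-206AS cells and 1.40 lower in miR-22 cells.

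Whether the lines responded unequally was tested directly, as the miR-22 difference minus the NpBI-206AS difference. No kinesin passed, nor did any row of the table (0.0% called), and 4 of 41 kinesins had an unadjusted p under 0.05 against 8.88% of rows. These were KIF15 at -0.97 (95% interval -1.64 to -0.30, limma adjusted p = 0.42), KIF14 at -1.11 (95% interval -2.04 to -0.18, limma adjusted p = 0.50), KIF1A at -0.81 (95% interval -1.47 to -0.15, limma adjusted p = 0.49) and KIF27 at -0.68 (95% interval -1.33 to -0.03, limma adjusted p = 0.55). Of these 4, only KIF1A had opposite signs, 0.27 higher after doxycycline in NpBI-206AS cells and 0.54 lower in miR-22 cells. Of the 15 transport kinesins, 11 lay above 0 in NpBI-206AS cells and 13 lay below 0 in miR-22 cells. Over all rows 48.8% lay below 0 in NpBI-206AS cells and 51.4% in miR-22 cells. The share of all rows with opposite signs was not counted. Some of the NpBI-206AS differences, each 1 array against 1, were near 0, such as 0.01 for KIFC3 and 0.03 for KIF1B. For KIF4A the difference of responses was 0.07 with an interval of -0.60 to 0.74, and for KIF23 it was -0.05 with an interval of -0.75 to 0.66, and these intervals leave room for unequal responses in either direction.

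**Figure D4:**
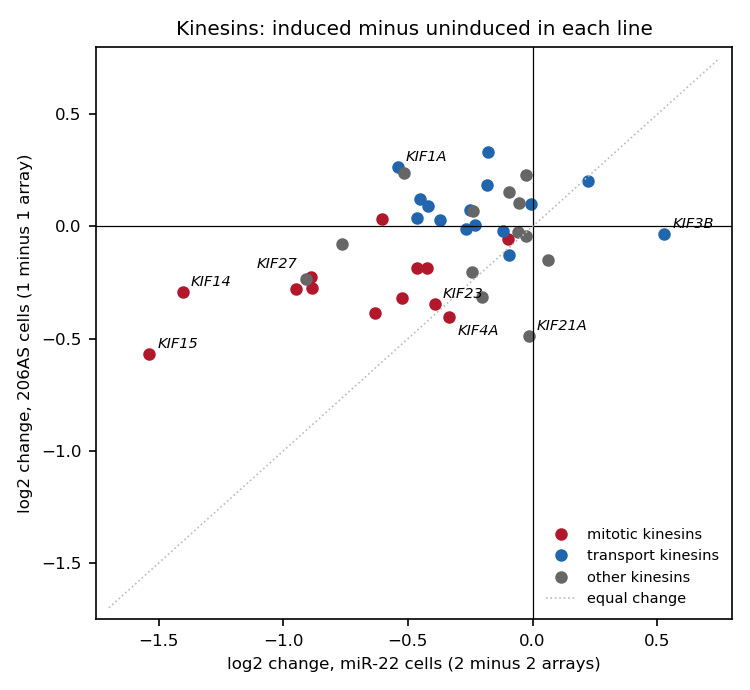
Each of the 41 kinesins by its log2 difference between induced and uninduced cells in the miR-22 line (horizontal axis, 2 arrays against 2) and in the NpBI-206AS line (vertical axis, 1 array against 1), coloured by role, with a dotted line where both are equal. KIF15 lies farthest to the lower left, at -1.54 and -0.57; KIF3B lies to the right of 0, and KIF4A lies near the line of equal change.

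Set against all 4 other arrays, which mix both lines and both treatments, 7 kinesins passed lower and none passed higher. These were the mitotic KIF15 (-1.51, limma adjusted p = 0.0025), KIF14 (-1.34, limma adjusted p = 0.0038), KIF2C (-0.84, limma adjusted p = 0.0060), KIF20A (-0.91, limma adjusted p = 0.0085) and KIFC1 (-0.76, limma adjusted p = 0.021), and the other kinesins KIF27 (-0.85, limma adjusted p = 0.0059) and KIF26B (-0.81, limma adjusted p = 0.016). Thus 5 of 13 mitotic, 0 of 15 transport and 2 of 13 other kinesins passed lower, against 7.43% of all rows lower and 6.32% higher. Both induced miR-22 arrays lay below all 4 others for 11 of 13 mitotic, 9 of 15 transport and 5 of 13 other kinesins, against 18.3% of rows. KIF3B had the highest difference at 0.43 (limma adjusted p = 0.076). This comparison shares the induced arrays with the earlier ones, so it is a second reading and not a second experiment. Without uninduced miR-22 replicate 1, the array with a prefix of its own, 14 kinesins passed. In that fit 7463 of all 33297 rows passed, against 4576 with all arrays. Fewer kinesins than with all arrays passed when 1 induced miR-22 array was left out, which leaves 1 in that group. With any 1 of the 6 arrays left out, the differences were -1.61 to -1.42 for KIF15 and -1.61 to -1.08 for KIF14.

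The proteins that work with mitotic kinesins were read from a list of 17 spindle and midzone partners, all measured. In miR-22 cells 1 of the 17 passed lower, against 2.01% of all rows. It was CENPE, which carries chromosomes to the metaphase plate. It read 5.30 and 5.87 in induced miR-22 cells, 7.68 and 8.32 in uninduced miR-22 cells, and 8.48 and 8.43 in uninduced and induced NpBI-206AS cells, and the difference was -2.42 (SE 0.29, limma adjusted p = 0.025). Its level in the NpBI-206AS line differed by -0.05 between the 2 arrays. The median of the list was -0.55, with 16 of 17 below 0 and 11 at an unadjusted p under 0.05, against 21.6% of all rows at such a p in either direction. Against all 4 other arrays 8 of 17 passed lower, against 7.43% of all rows. Among them were NUSAP1, a microtubule bundler (-1.05, limma adjusted p = 0.0067), HMMR, a spindle pole adaptor (-1.03, limma adjusted p = 0.016), and PRC1, the midzone crosslinker that KIF4A and KIF14 bind (-0.53, limma adjusted p = 0.041). RACGAP1, the partner of KIF23 in centralspindlin, differed by -0.09 there (limma adjusted p = 0.66).

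General markers of dividing cells were partly lower as well. Of 9 such markers 6 lay below 0 between induced and uninduced miR-22 cells, with a list median of -0.51, and 2 passed lower, against 2.01% of all rows. MKI67 fell by 2.05 (limma adjusted p = 0.027) and CCNA2, the S and G2 phase cyclin, by 1.01 (limma adjusted p = 0.036). PCNA and MCM2, replication factors, had differences of 0.35 and 0.26, and CDK1, the mitotic kinase, of 0.11, none of which passed. In NpBI-206AS cells 9 of 9 lay below 0, with a median of -0.32. Array by array, the medians of these markers about their 6-array means were -0.37 and -0.20 for induced miR-22, 0.10 and 0.23 for uninduced miR-22, 0.28 for uninduced NpBI-206AS and -0.04 for induced NpBI-206AS cells. In bulk RNA fewer dividing cells and less of a transcript per cell cannot be told apart, and the part of proliferation in the kinesin differences was not tested. Of 9 skeletal muscle markers 7 lay below 0 and 3 also passed lower, against 2.01% of all rows. These were MYH3 (-2.79, limma adjusted p = 0.015), DES (-1.07, limma adjusted p = 0.038) and ACTC1 (-1.0, limma adjusted p = 0.033). Against induced NpBI-206AS cells none of the 9 passed by limma, 3 had an unadjusted p under 0.05, ACTC1 differed by -0.03 and MYOG by 0.69. The lines already differed without the drug. Uninduced NpBI-206AS cells read below uninduced miR-22 replicate 2 for all 9 markers, with a median of -0.40, and for 52.1% of all rows. There ACTC1 differed by -0.89 and MYOG by -1.25, 1 array against 1. The comparison with induced NpBI-206AS cells holds this line difference as well.

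The factors that act on CHR and CCAAT elements and on G2 and mitosis genes formed a list of 19, of which none passed between induced and uninduced miR-22 cells by limma; 9 had an unadjusted p under 0.05, 6 of them lower and 3 higher, against 21.6% of all rows at such a p. MYBL2, which joins MuvB to activate these genes, read 8.89 and 8.27 induced against 9.85 and 9.46 uninduced, with 9.52 and 9.15 in NpBI-206AS cells (-1.07, limma adjusted p = 0.088). E2F2, an activator E2F, had a difference of -0.85 (limma adjusted p = 0.061). FOXM1, the forkhead activator of mitotic genes, read 9.45 and 9.32 against 10.49 and 9.87 (-0.80, limma adjusted p = 0.13). LIN54, the MuvB subunit that touches CHR, read 7.20 and 7.33 against 7.68 and 7.71 (-0.43, limma adjusted p = 0.17). The 3 higher ones were E2F5 (0.73, limma adjusted p = 0.093), RBL2, a pocket protein of DREAM (0.47, limma adjusted p = 0.20), and RBBP4, a MuvB subunit (0.47, limma adjusted p = 0.16). Against all 4 other arrays 2 of the 19 passed lower, MYBL2 and E2F4, and 1 higher, RBBP4, against 7.43% and 6.32% of all rows. Whether these levels bear on the kinesins was not tested.

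The light chains and cargo adaptors of transport kinesins gave 18 measured genes of 20, with a median of -0.08. RHOT1, the mitochondrial GTPase that couples mitochondria to kinesin through TRAK adaptors, was the 1 of 18 that passed, against 1.59% of all rows higher and 2.01% lower. It read 8.19 and 8.34 in induced miR-22 cells, 6.72 and 7.04 in uninduced miR-22 cells, and 7.28 and 7.38 in uninduced and induced NpBI-206AS cells, a rise of 1.38 (SE 0.18, limma adjusted p = 0.026). The heavy chain that carries this cargo, KIF5B, differed by -0.27. Against all 4 other arrays MAPK8IP1, a scaffold that binds kinesin light chains, was also higher (0.84, limma adjusted p = 0.018), and KIFAP3 was lower (-0.54, limma adjusted p = 0.034), against 6.32% of all rows higher and 7.43% lower.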

How the data were processed

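Total RNA of 6 cultures was read on Affymetrix Human Gene ST arrays. The authors deposited log2 expression values per row, which the submitters' processing notes tie to Partek and RMA; neither version, genome build nor probe library is given in the sources. RMA sets all arrays to nearly 1 distribution, so a shift common to all transcripts stays hidden. No detection calls were used, and the number of arrays limits the precision.

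Rows were named through the platform annotation, updated by gene ID with the GRCh38.p14 gene table: 19460 rows had 1 symbol (19429 matched by ID), 1754 several and 12083 none. Only single symbols were used. All 6 value columns were mapped to samples by name. Tests used limma 3.58.1 (R 4.3.3; lmFit, eBayes, two-sided) with 1 mean per group over 6 arrays, Benjamini-Hochberg adjustment over 33297 rows and a threshold of 0.05; a second model set induced miR-22 against the other 4. The model was tested on simulated data whose changes were larger than the difference of any kinesin member and that held no effect of array prefix. That check does not bear on differences of the size reported for the members. The members, lists, tests and promoter motifs were chosen with earlier results of these data known. Every mitotic kinesin, every member that passed and the 3 largest differences each way of the other lists were given on every array; of partner lists, mainly members that passed or had the largest difference. KIF2A, KIF3A, KIF5A to KIF5C, KIFAP3, PRC1, RACGAP1, FOXM1, LIN54, E2F5, RBL2, RBBP4, E2F4, PCNA, MCM2 and CDK1 were added for their roles, after their values were seen.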

Additional observations from a re-analysis of the deposited data

How the results depend on the processing

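With each of the 4 miR-22 arrays left out, 0 to 0 kinesins passed between induced and uninduced miR-22 cells, where 4 passed with all arrays; each such limma fit, with 1 array fewer, passed 0 of all rows at the adjusted threshold and 3526 to 8113 at an unadjusted p under 0.05. Other settings gave 3 to 6, except that 14 passed with the 3 control arrays of one code prefix as controls; 2 of these are NpBI-206AS arrays, 1 of them induced, so this is the same fit as the comparison with the other 4 arrays without uninduced miR-22 replicate 1. Of all rows, 1200 passed in the main setting, 2609 without the dimmest 50% of rows, 2955 with the replicate block and 7463 with the controls of one prefix. A replicate block gave 6, with KIF20A and KIFC1 added; the labels only number the replicates, and 2 pairs do not show pairing. Without the dimmest 50% of rows, 1 kinesin passed against induced NpBI-206AS cells and 13 against the other 4 arrays, where 7 passed in the main setting. Of the 16648 rows kept, 747 passed in the first of these comparisons and 4755 in the second. In the main setting 130 and 4576 of 33297 rows did. Against the other 4 arrays fewer kinesins passed when 1 induced miR-22 array was left out. No setting gave a kinesin whose response differed between the lines. The mitotic median of -0.61 became -0.52 with rows of a gene averaged and -0.71 to -0.52 with 1 array left out. The transport median of -0.23 became -0.16 with arrays centred and -0.26 to -0.15 with 1 array left out. The median of the others, -0.09, became -0.022 with arrays centred, -0.36 without dim rows and -0.23 to -0.11 with 1 array left out. KIF19, 0.06 in the main setting, reversed to -0.0028 with the controls of one prefix and ranged from -0.077 to 0.20 with 1 array left out, and KIF2B, -0.10, ranged from -0.26 to 0.069; against the other 4 arrays they ranged from -0.0028 to 0.089 and from -0.23 to 0.017. The cause was not tested.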

Other observations

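The minus-end motor dynein, which pulls against kinesins, was read from a list of 25 dynein, dynactin and adaptor genes, of which 23 were measured. NDEL1, which loads dynein onto its regulator LIS1, was the 1 of 23 that passed between induced and uninduced miR-22 cells. It passed lower, as did 2.01% of all rows. It read 7.85 and 7.86 in induced miR-22 cells, 8.79 and 8.69 in uninduced miR-22 cells, and 8.67 and 8.73 in uninduced and induced NpBI-206AS cells, a difference of -0.89 (limma adjusted p = 0.042). The median of the list was 0.05. Against the other 4 arrays 4 of the 23 passed lower and 3 higher, against 7.43% and 6.32% of all rows, and dynactin subunits were among both: ACTR10 read 8.10 and 8.11 in induced miR-22 cells against 8.93 to 9.46 elsewhere (-1.15, limma adjusted p = 0.0049), while DCTN5 read 10.90 and 10.90 against 9.84 to 10.18 (0.81, limma adjusted p = 0.0091) and DCTN3 10.11 and 10.08 against 9.24 to 9.44 (0.76, limma adjusted p = 0.0057).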
